A study of Mus musculus with 24 samples.

Results

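Skeletal muscle fibers form when single myoblasts line up, adhere and merge their membranes into 1 shared cell. Cadherins and proteins of the immunoglobulin family hold the cells against each other, exchange factors of the Dock family switch on the small GTPase Rac and so drive the actin that pushes the membranes together, and 2 muscle-specific membrane proteins, myomaker and myomixer, carry out the merger itself. The 10 genes described here were chosen by name for these roles: the fusion proteins Mymk (myomaker) and Mymx (myomixer), the cadherins Cdh15 (M-cadherin), Cdh2 (N-cadherin) and Cdh11 (OB-cadherin), the immunoglobulin family members Ncam1, Jam2 and Jam3, and the Rac exchange factors Dock1 and Dock5. They are 10 of the 56941 genes in the deposited table, and 9 of them were among the 13318 genes with enough counts to be tested.

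The libraries were RNA-seq of muscle tissues grown from C2C12, an established mouse myoblast line, on fibrin hydrogel. The cells of all 4 conditions carried channelrhodopsin (genotype ChR2::tdTomato), a light-gated channel that makes the tissue contract when illuminated. Tissues were differentiated in horse serum with IGF-1 for about 2 weeks and were either left without light (control) or stimulated for 30 min per day at 1, 4, or 10 Hz, with 6 biological replicates per condition. Every sample came from 1 line, so the p-values describe the spread between cultures of that line.

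Library totals ranged from 4.09 to 15.2 M estimated counts (M, mega) and were higher at 4 Hz than in control (exact permutation test, p = 0.00433, adjusted p = 0.00866 over 6 tests of composition). The share of small RNAs that carry no poly(A) tail (19 rows of the table, such as the 7SK RNA Rn7sk) separated the conditions: it was 129 ± 23.5 CPM (counts scaled to a library of 1 M, SD, n = 6) in control, 29.1 ± 20.9 CPM at 1 Hz, 26.2 ± 12.3 CPM at 4 Hz, and 122 ± 86.4 CPM at 10 Hz. The 6 libraries at 1 Hz and the 6 at 4 Hz did not overlap the 6 controls in this share (2-sided exact permutation test, p = 0.00216 for each, the smallest that 6 against 6 allow; adjusted p = 0.00648). Some libraries of low input were prepared by ribodepletion rather than poly(A) selection, and which ones was not given. Results at 1 and 4 Hz therefore cannot be told apart from this difference in library composition, and values with the small RNA share as a covariate are given for those of the 10 genes that were called. With this covariate 1 of the 13318 tested genes was called at 1 Hz, 250 at 4 Hz, and 203 at 10 Hz. Muscle fiber markers were present in all 24 libraries, with a summed level over 10 genes of at least 7452 CPM. Fiber markers also moved with condition, with medians of 8848 CPM in control, 12738 CPM at 1 Hz, 14614 CPM at 4 Hz, and 10040.0 CPM at 10 Hz, and 7 of the 10 were called higher than control at 1 Hz, 7 at 4 Hz, and 2 at 10 Hz by the rule given with Mymk (9.34%, 10.5%, and 1.24% of all tested genes were called upward). These counts were 0, 3, and 2 with the small RNA covariate. Counts per tissue do not separate a larger number of fibers from more RNA per fiber. Summed levels of endothelial (5 genes), nerve and Schwann cell (6 genes), and fat cell markers (5 genes) were at most 3.54 CPM in any library, and the macrophage markers summed to 69.6 to 115 CPM, nearly all of it Cd68, with C1qa at 0 in every library. Among the macrophage markers only Csf1r was called against control, lower at 4 Hz (-1.33 ± 0.45, padj = 0.0195). Csf1r averaged 1.49 CPM in control and 0.602 CPM at 4 Hz, and was not called with the small RNA covariate. The fibroblast markers, which C2C12 cultures express, had medians of 344 CPM in control, 518 CPM at 1 Hz, 403 CPM at 4 Hz, and 308 CPM at 10 Hz. This sum was mostly Col3a1, which averaged 300 CPM in control, 451 CPM at 1 Hz, 364 CPM at 4 Hz, and 261 CPM at 10 Hz. Col3a1 was upregulated at 1 Hz (0.59 ± 0.18, padj = 0.0123), and Dcn was downregulated at 4 Hz (-0.59 ± 0.17, padj = 0.00695). No other fibroblast marker was called against control, and none was with the small RNA covariate. The summed markers of undifferentiated myoblasts had medians of 1644 CPM in control, 2212 CPM at 1 Hz, 2097 CPM at 4 Hz, and 1759.7 CPM at 10 Hz, a sum made up mostly of Des, which fibers also express. Single genes of this list differed in direction: Myod1 and Pax7 were upregulated at 1 and 4 Hz, Myf5 was downregulated at 4 Hz (-0.61 ± 0.18, padj = 0.00879) and averaged 21.1 CPM in control, 18.3 CPM at 1 Hz, and 13.8 CPM at 4 Hz, and Id1 and Id3 were not called (-0.20 ± 0.18 and -0.40 ± 0.18 at 1 Hz, 0.47 ± 0.17 and 0.40 ± 0.17 at 4 Hz). Pax7 averaged 1.86 CPM in control, 3.72 CPM at 1 Hz (padj = 0.0349), and 3.84 CPM at 4 Hz (padj = 0.023). No undifferentiated marker was called against control at any frequency with the small RNA covariate. Markers of dividing cells summed to between 22.5 and 47.7 CPM in every library, and single genes of this list also differed in direction. At 4 Hz Mki67 (1.28 ± 0.46, padj = 0.028) and Top2a (0.69 ± 0.23, padj = 0.0182) were upregulated. Mki67 was near the floor, with means of 0.996 CPM in control and 2.33 CPM at 4 Hz. Cdk1 was lower at 1 Hz (-0.38 ± 0.13, padj = 0.0313) and at 4 Hz (-0.38 ± 0.13, padj = 0.026), by differences under the fold limit. None of the dividing cell markers was called at 1 or 10 Hz, or at 4 Hz with the small RNA covariate. The part of these marker levels in the results was not tested.

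Levels of different genes were compared in TPM, which accounts for transcript length. Mymk was the most abundant of the 10 with a mean of 382 TPM over the 24 libraries, followed by Mymx at 151 TPM and Ncam1 at 118 TPM. Mymk was above Mymx in 24 of 24 libraries, and Mymx was above Ncam1 in 20 of 24. A middle tier held Cdh15 (49.0 TPM), Jam2 (40.1 TPM), and Cdh2 (39.8 TPM), whose order was not fixed: Cdh15 exceeded Jam2 in 18 of 24 libraries and Jam2 exceeded Cdh2 in 13 of 24. Jam2 was above Cdh2 in 6 of 6 controls and in 1 of 6 libraries at 1 Hz. Jam3 (6.95 TPM) was below Cdh2 in 24 of 24 libraries, and Dock5 (2.98 TPM) exceeded Dock1 (2.31 TPM) in 19 of 24. Cdh11, a cadherin typical of mesenchymal and bone-forming cells, was close to absent: its counts ran from 0 to 6 per library with a mean of 0.0643 TPM, and it failed the filter on low counts.

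**Figure D1:**
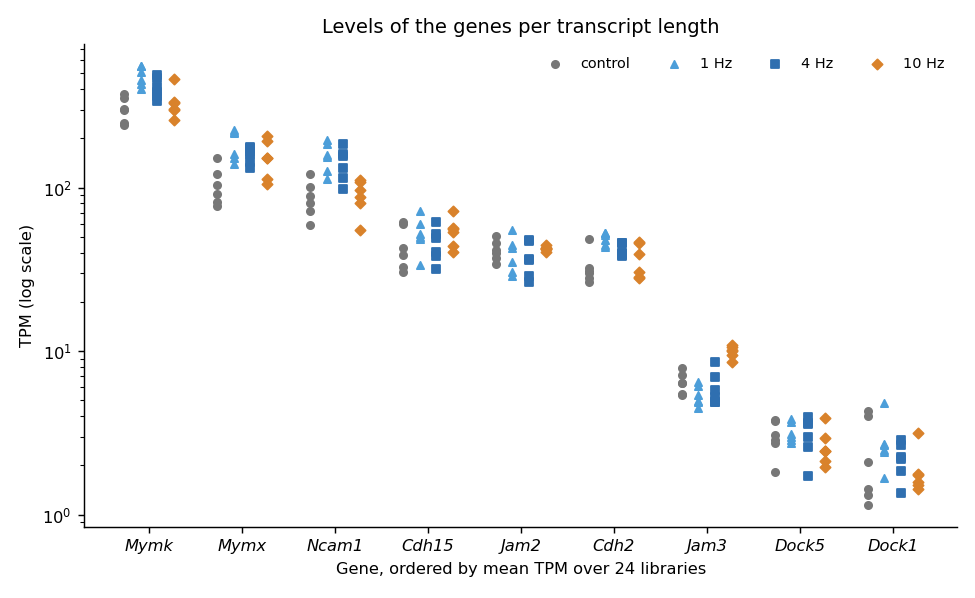
TPM on a log scale (y axis) of the 9 tested genes (x axis, ordered by mean TPM), with 1 point per library and 6 libraries for each of the 4 conditions. Mymk lies at the top in every condition, Cdh15, Jam2, and Cdh2 share a middle tier, and Dock5 and Dock1 lie lowest.

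The first question was whether daily stimulation changed the transcripts of the 2 fusion proteins. In the libraries of control tissues Mymk measured 210.4 CPM at the lowest, 246 CPM at the median, and 314 CPM at the highest. At 1 Hz the corresponding values were 346, 415, and 513 CPM, and at 4 Hz they were 317, 376, and 488 CPM. All 6 libraries at each of these frequencies lay above all 6 controls. At 10 Hz Mymk ran from 234 through 287 to 410.5 CPM, and only 1 library of 6 exceeded the highest control. A gene was called when the edgeR quasi-likelihood test gave an adjusted p (padj, Benjamini-Hochberg over the 13318 genes) below 0.05 with an absolute log2 fold change, log2(FC), above 0.5. By this rule Mymk was upregulated at 1 Hz (log2(FC) = 0.75 ± 0.13 SE, padj = 0.00012) and at 4 Hz (0.63 ± 0.13, padj = 0.000438). On the log2(TPM + 1) scale the 4 Hz difference was 0.44, under the fold limit (padj = 0.00941). The 10 Hz difference of 0.24 ± 0.13 was not called (padj = 0.301).

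Myomixer is a micropeptide that acts after myomaker to open the fusion pore. Mymx measured 31.2 CPM in the lowest, 36.0 CPM at the median, and 55.3 CPM in the highest control library. Its range was 54.2 to 88.0 CPM at 1 Hz (median 71.8), 56.7 to 77.6 CPM at 4 Hz (median 68.5), and 45.0 to 83.2 CPM at 10 Hz (median 60.1). Groups were separated completely at 4 Hz, whereas 5 of 6 libraries at 1 Hz and 4 of 6 at 10 Hz were above all controls. Mymx was upregulated at all 3 frequencies, by 0.88 ± 0.16 at 1 Hz (padj = 0.000219), 0.80 ± 0.16 at 4 Hz (padj = 0.000413), and 0.69 ± 0.16 at 10 Hz (padj = 0.0142). On the log2(TPM + 1) scale the 10 Hz difference was 0.55 and was no longer called (padj = 0.0615).

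Mymk was lower at 10 Hz than at 1 Hz (log2(FC) = -0.51 ± 0.13, padj = 0.00337, 5 of 6 libraries below all of those at 1 Hz). This value sits at the fold limit: without 1 Hz replicate 4 or 6, or 10 Hz replicate 2, 3, or 4, it moved to as little as -0.45 and was not called, although padj stayed at or below 0.0122. With the small RNA covariate it was -0.23 (padj = 0.517). Mymx at 10 Hz differed from 1 Hz by -0.19 ± 0.16 (padj = 0.349) and from 4 Hz by -0.11 ± 0.16 (padj = 0.663), neither of which was called. The ratio of Mymk to Mymx in TPM had medians of 3.00 in control, 2.68 at 1 Hz, 2.54 at 4 Hz, and 2.22 at 10 Hz. Its lowest value, 1.55, was in a 10 Hz library, and the ranges of all 4 conditions overlapped.

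Both fusion genes are known targets of the myogenic factors Myod1 and Myog, which bind E-boxes. Myod1 was upregulated at 1 Hz (log2(FC) = 1.17 ± 0.24, padj = 0.000456) and 4 Hz (1.51 ± 0.23, padj = 2.15e-05), with 6 of 6 libraries above all controls at each. Its 10 Hz difference of 0.77 ± 0.24 was not called (padj = 0.0548). Myog was upregulated at 4 Hz (0.85 ± 0.15, padj = 7.73e-05) and 10 Hz (0.62 ± 0.15, padj = 0.0142), and at 1 Hz it was under the fold limit (0.47 ± 0.15, padj = 0.0144). Under the small RNA covariate the Myod1 differences were 0.37 at 1 Hz (padj = 0.731) and 0.71 at 4 Hz (padj = 0.23), and those of Myog were 0.39 at 4 Hz (padj = 0.339) and 0.52 at 10 Hz (padj = 0.0284), the last of which was called.

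With the small RNA share as a covariate, the Mymk difference was 0.42 at 1 Hz (padj = 0.429) and 0.30 at 4 Hz (padj = 0.445), and the Mymx difference was 0.34 at 1 Hz (padj = 0.637) and 0.27 at 4 Hz (padj = 0.584). None of these 4 was called. At 10 Hz the small RNA share ran from 36.9 to 271 CPM, a wider range than the 96.1 to 167 CPM of the controls. Mymx at 10 Hz was still called with the covariate (0.59, padj = 0.0199).

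**Figure D2:**
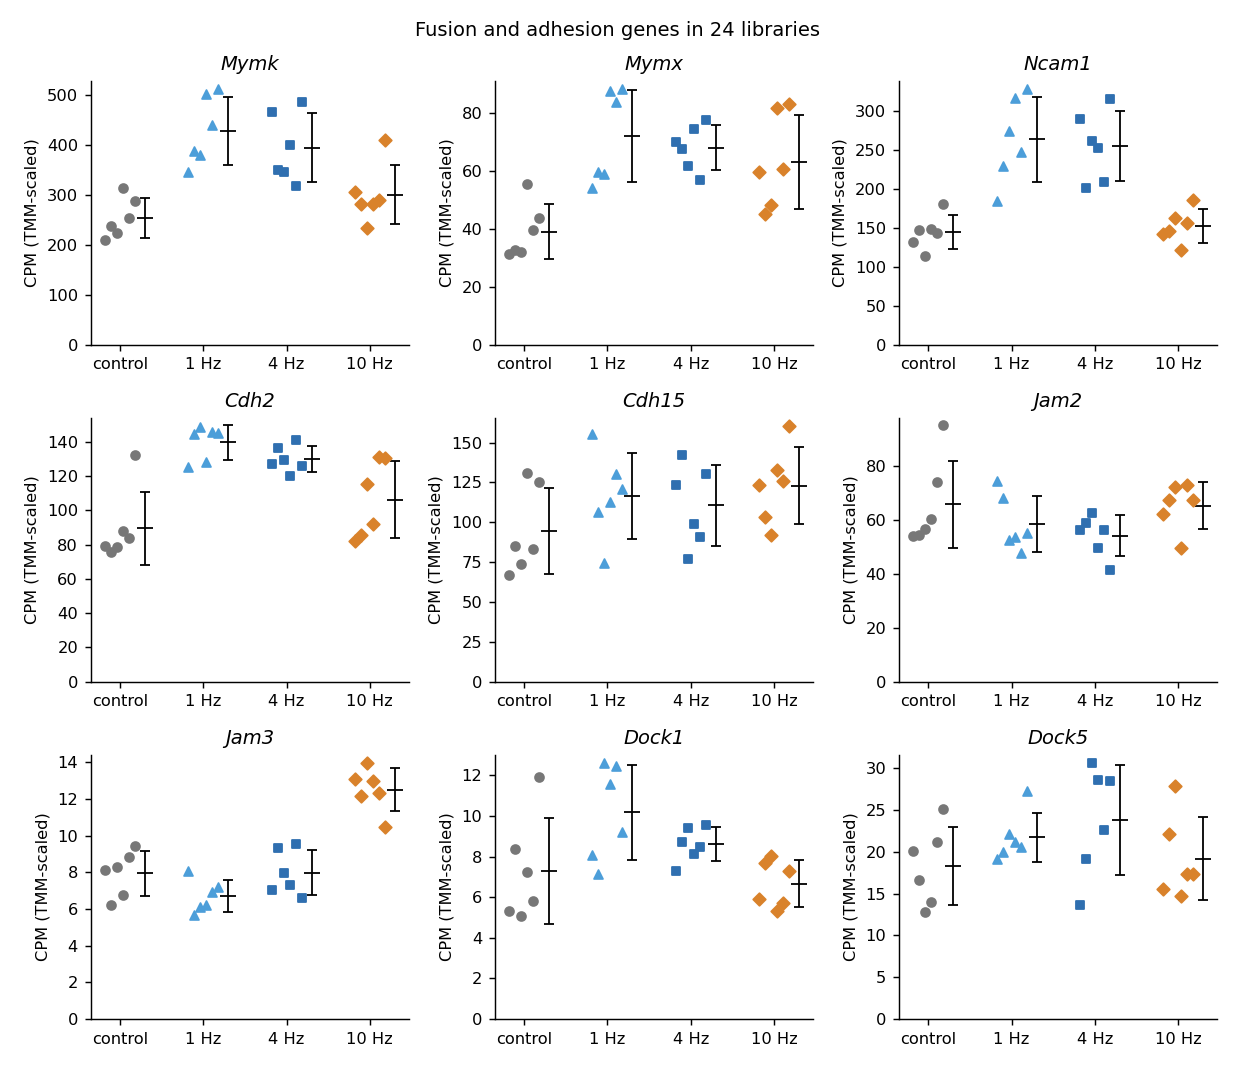
CPM (TMM-scaled, y axes from 0) of the 9 tested genes in each of the 24 libraries, with 1 panel per gene and conditions on the x axes; bars give mean ± SD of 6 libraries. Mymk and Ncam1 at 1 and 4 Hz lie above all controls, and Jam3 at 10 Hz lies above every library of the other conditions.

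Across the 24 libraries log2 CPM of Mymk and Mymx had a Pearson r of 0.861, and r was 0.818 after each condition was centered on its own mean. Mymk and Ncam1 had an r of 0.894, or 0.727 within conditions. These correlations describe libraries that share conditions, depth, and fiber content. Among the 9059 other tested genes with a mean of at least 10 CPM, the genes most like Mymk were Chrng (r = 0.978), the gamma subunit of the embryonic acetylcholine receptor, Actn3 (r = 0.973), an alpha-actinin of fast fibers, and Hrc (r = 0.956), a calcium-binding protein of the sarcoplasmic reticulum. Those most like Mymx were Mtss2 (r = 0.943), the tubulin gene Tubb6 (r = 0.943), and R3hdml (r = 0.924).

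**Figure D3:**
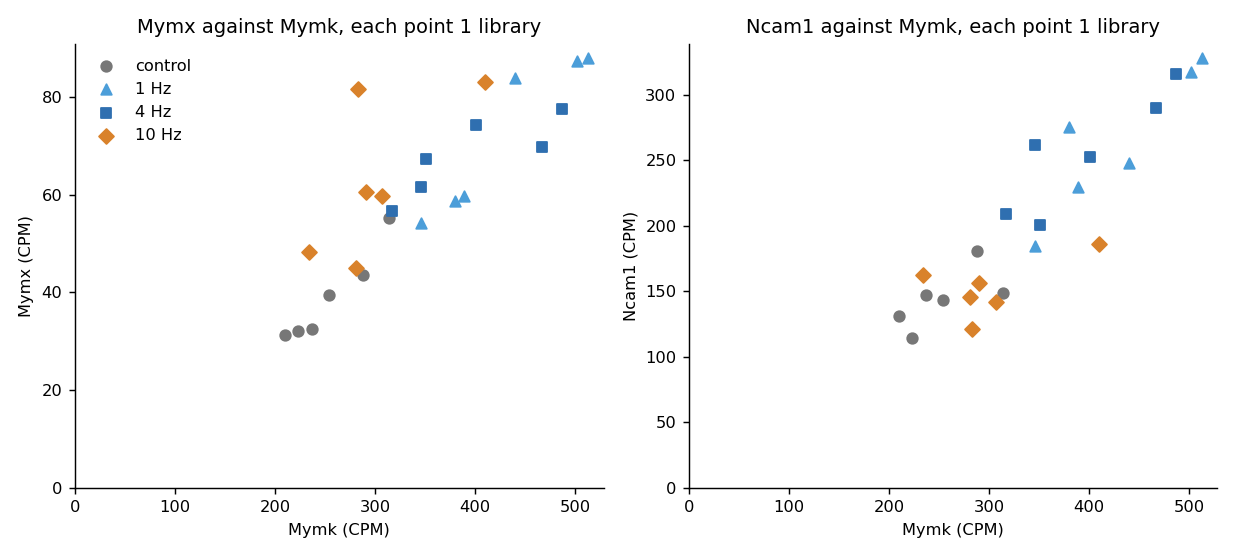
Mymx (left) and Ncam1 (right) on the y axes against Mymk on the x axes, all in CPM, with 1 point for each of 24 libraries. Libraries at 1 and 4 Hz lie above all controls in Mymk and Ncam1. In Mymx the lowest at 1 Hz (54.2 CPM) is below the highest control (55.3 CPM). Those at 10 Hz spread in Mymx (45.0 to 83.2 CPM) but stay between 122 and 186 CPM in Ncam1. On the left, 10 Hz replicate 6 (Mymk 410 CPM, Mymx 83.2 CPM) lies among the libraries at 1 and 4 Hz.

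Adhesion genes were examined next, beginning with the cadherins, which bind like to like across the cell contact in the presence of calcium. Cdh2 ran from 75.8 to 132 CPM in control (median 81.3), from 125 to 149 CPM at 1 Hz (median 145), from 120.1 to 141 CPM at 4 Hz (median 128), and from 81.8 to 131 CPM at 10 Hz (median 104). The highest control was replicate 6, and the other 5 controls were at or below 87.7 CPM, so that both groups at 1 and 4 Hz overlapped the controls through this library. Cdh2 was upregulated at 1 Hz (0.64 ± 0.12, padj = 0.000298) and 4 Hz (0.54 ± 0.12, padj = 0.00114), and not called at 10 Hz (0.25 ± 0.12, padj = 0.256). The 4 Hz value is near the fold limit, and it was 0.36 on the log2(TPM + 1) scale (padj = 0.0387) and 0.45 with scaling by total counts (padj = 0.0043). Cdh2 at 10 Hz was lower than at 1 Hz by a difference under the fold limit (-0.40 ± 0.12, padj = 0.0128). With the small RNA covariate the differences from control were 0.37 at 1 Hz (padj = 0.484) and 0.27 at 4 Hz (padj = 0.492).

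Cdh15 is the cadherin most typical of myoblasts and satellite cells. It spanned 67.0 to 131 CPM in control, 74.4 to 156 CPM at 1 Hz, 76.9 to 142 CPM at 4 Hz, and 91.8 to 161 CPM at 10 Hz. The 4 ranges overlapped broadly. Its log2(FC) against control was 0.30 ± 0.18 at 1 Hz (padj = 0.196), 0.23 ± 0.18 at 4 Hz (padj = 0.322), and 0.38 ± 0.18 at 10 Hz (padj = 0.223), and it was called in none of the 6 comparisons. The ratio of Cdh15 to Cdh2 in TPM had medians of 1.25, 1.11, 1.15, and 1.55 from control through 10 Hz, with overlapping ranges. Cdh11 was at 0 counts in 1 to 2 libraries of each condition and never exceeded 0.786 CPM, so no fold change is given for it.

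Ncam1 encodes the neural cell adhesion molecule, which differentiating myotubes display on their surface and which is withdrawn in innervated fibers. In control it ran from 115 through a median of 145 to 181 CPM. Levels were 185 to 328 CPM at 1 Hz (median 262) and 201 to 316 CPM at 4 Hz (median 257). The 10 Hz libraries, at 122 to 186 CPM (median 151), lay within the control range except for 1. Ncam1 was upregulated at 1 Hz (0.87 ± 0.13, padj = 3.08e-05) and 4 Hz (0.82 ± 0.13, padj = 3.41e-05) with all 6 libraries above all controls at each, and its 10 Hz difference was 0.08 ± 0.13 (padj = 0.795). Compared directly, Ncam1 at 10 Hz was lower than at 1 Hz (-0.79 ± 0.13, padj = 6.07e-05) and lower than at 4 Hz (-0.74 ± 0.13, padj = 0.000437, 6 of 6 libraries below). With the covariate these were -0.53 (padj = 0.121) and -0.49 (padj = 0.507), and the differences from control were 0.56 at 1 Hz (padj = 0.281) and 0.53 at 4 Hz (padj = 0.164).

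Jam2 and Jam3 are junctional adhesion molecules that bind each other across the contact. Jam3 measured 6.21 to 9.42 CPM in control (median 8.21), 5.67 to 8.09 CPM at 1 Hz (median 6.56), 6.61 to 9.57 CPM at 4 Hz (median 7.65), and 10.5 to 14.0 CPM at 10 Hz (median 12.7). The 6 libraries at 10 Hz were above all 18 others. Jam3 was upregulated at 10 Hz against control (0.67 ± 0.13, padj = 0.00298), against 1 Hz (0.90 ± 0.13, padj = 1.01e-05), and against 4 Hz (0.65 ± 0.12, padj = 0.000685). At 1 Hz and 4 Hz its differences from control were -0.23 ± 0.13 (padj = 0.18) and 0.01 ± 0.13 (padj = 0.941). The covariate left the call against control (0.70, padj = 0.00225) and against 1 Hz (0.70, padj = 0.0392), and the comparison with 4 Hz was no longer called (0.46, padj = 0.538). Jam3 rested on 23 to 162 counts per library.

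Jam2, at 54.1 to 95.2 CPM in control and 49.8 to 73.1 CPM at 10 Hz, was called in none of the comparisons. Its largest difference from control was -0.28 ± 0.13 at 4 Hz (padj = 0.103). The Jam2 to Jam3 ratio in TPM was 5.41 to 7.57 in control and 3.91 to 4.91 at 10 Hz, ranges that did not overlap, while at 1 Hz it ran from 4.71 to 9.83 and at 4 Hz from 5.26 to 8.22.

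Dock1 and Dock5 load Rac with GTP downstream of the adhesion receptors. Dock1 measured 5.08 to 11.9 CPM in control (median 6.54), 7.15 to 12.6 CPM at 1 Hz (median 10.4), 7.31 to 9.58 CPM at 4 Hz (median 8.59), and 5.32 to 8.03 CPM at 10 Hz (median 6.60). The highest control was again replicate 6, and only 2 libraries at 1 Hz exceeded it. Dock1 passed the rule at 1 Hz by a narrow margin (0.51 ± 0.18, padj = 0.0301). Without control replicate 1, 3, or 5, or 1 Hz replicate 3, 4, or 5, it was not called, with values down to 0.42 and padj up to 0.086. Nor was it called with scaling by total counts (0.43, padj = 0.0644), in the 12 libraries compared (0.52, padj = 0.0585), with apeglm shrinkage (0.43), or on the log2(TPM + 1) scale (0.22, padj = 0.487). Dock1 was lower at 10 Hz than at 1 Hz (-0.63 ± 0.18, padj = 0.00703), a value that was -0.39 on the log2(TPM + 1) scale (padj = 0.211). With the covariate the 2 values were 0.40 (padj = 0.691) and -0.54 (padj = 0.307). Its counts were 25 to 185 per library.

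Dock5 spanned 12.8 to 25.1 CPM in control, 19.1 to 27.3 CPM at 1 Hz, 13.7 to 30.6 CPM at 4 Hz, and 14.7 to 27.8 CPM at 10 Hz, and was not called in any comparison. Its difference of 0.40 ± 0.18 at 4 Hz (padj = 0.084) passed the rule only without control replicate 6 or 4 Hz replicate 1, when it reached 0.52 (padj as low as 0.0204).

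The RefSeq promoter table (GRCm38.p6, 250 bases before to 50 after the start) held 2 of the 10 genes, Cdh15 and Dock1. The 250 bases before the start are shown for both because Dock1 was called at 1 Hz and Cdh15 was not, with E-boxes (CANNTG, which reads the same on both strands) in capitals. Cdh15 is at chr8:122848124-122848373 and Dock1 at chr7:134670437-134670686, both on the plus strand.
Cdh15: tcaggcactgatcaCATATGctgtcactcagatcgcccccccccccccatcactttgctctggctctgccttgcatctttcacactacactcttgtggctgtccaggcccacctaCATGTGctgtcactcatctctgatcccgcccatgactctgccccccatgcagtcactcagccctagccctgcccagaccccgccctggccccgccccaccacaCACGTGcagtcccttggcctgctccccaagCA
Dock1: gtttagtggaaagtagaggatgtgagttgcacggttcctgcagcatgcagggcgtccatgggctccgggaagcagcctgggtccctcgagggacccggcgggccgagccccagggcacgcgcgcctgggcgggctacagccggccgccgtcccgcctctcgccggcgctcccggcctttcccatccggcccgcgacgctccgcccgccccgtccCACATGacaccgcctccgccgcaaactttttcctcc
The Cdh15 window held 4 E-boxes, at -236, -135, -32, and -2 from the start, the last of which runs across the start, so that only its first 2 bases are shown. The Dock1 window held 1, at -36. Among all 32851 windows, 72.3% held at least 1 such motif and 6.49% held at least 4, so a match is a description of the letters only.

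**Figure D4:**
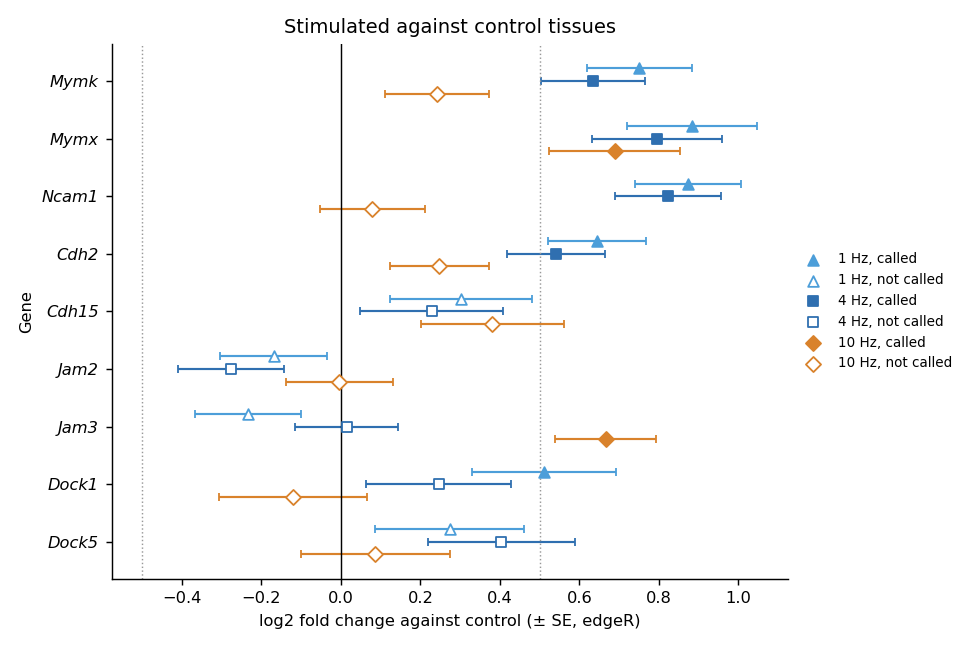
The log2(FC) against control (x axis, ± SE from edgeR) of the 9 tested genes (y axis) at 1, 4, and 10 Hz, with filled symbols for called genes and dotted lines at the fold limit of 0.5. Mymk, Ncam1, and Cdh2 are filled at 1 and 4 Hz, Mymx at all 3 frequencies, Dock1 at 1 Hz, and Jam3 at 10 Hz.

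Set side by side, 5 of the 9 tested genes were called at 1 Hz against a background of 18.3% of all tested genes, 4 of 9 at 4 Hz against 20.1%, and 2 of 9 at 10 Hz against 1.86%. All 11 calls were upward, and over all tested genes 9.34%, 10.5%, and 1.24% were called upward at the 3 frequencies. The median log2(FC) of the 9 was 0.51, 0.40, and 0.24 at the 3 frequencies, while that of all tested genes was between -0.014 and -0.0064. Under the small RNA covariate the counts were 0, 0, and 2, beside 1, 250, and 203 of all 13318 tested genes. These comparisons share the same 6 controls. Between frequencies, 0 of 9 were called for 4 Hz against 1 Hz (background 3.00%). DESeq2 also called 0, beside 412 of all genes. In edgeR 0 of the 9 had an unadjusted p below 0.05, a count that was not made over all genes. The 9 log2(FC) values there lay between -0.27 (Dock1) and 0.25 (Jam3). For 10 Hz against 1 Hz, 4 of 9 were called, with Jam3 higher and Mymk, Ncam1, and Dock1 lower (background 17.9%), and for 10 Hz against 4 Hz, 2 of 9 were called, with Jam3 higher and Ncam1 lower (background 11.0%). Mymk at 10 Hz against 4 Hz was under the fold limit (-0.39 ± 0.13, padj = 0.0301) and was called when 10 Hz replicate 6 was left out (-0.50).

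Further genes of adhesion and fusion were taken from 6 lists written from general knowledge (92 genes in the table, 64 tested). At 1 Hz 9 of the 64 (14.1%) were upregulated and 0 downregulated, at 4 Hz 7 were upregulated and 3 downregulated (15.6%), and at 10 Hz 1 was upregulated (1.56%). Counted in both directions, these shares are below the backgrounds of 18.3%, 20.1%, and 1.86%. Counted upward alone, 14.1%, 10.9%, and 1.56% stand against 9.34%, 10.5%, and 1.24% of all tested genes. With the small RNA covariate 0 were called at 1 Hz, 1 at 4 Hz (Afdn), and 1 at 10 Hz (Cav3). Over all 13318 tested genes 1, 250, and 203 were called with it. The median log2(FC) of the 64 was -0.0099, -0.0057, and -0.046.

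Of the 14 tested genes around the Dock and Rac module, 3 were upregulated at 1 Hz and 3 at 4 Hz (21.4% at each, where 9.34% and 10.5% of all tested genes were called upward). Trio, an exchange factor for Rac, averaged 116 ± 23.9 CPM in the controls, 186 ± 18.3 CPM at 1 Hz (0.69 ± 0.14, padj = 0.000475) and 184 ± 23.1 CPM at 4 Hz (0.67 ± 0.14, padj = 0.000438). The others were Elmo1, a partner of Dock1, and Dock4, named after their values were seen because they lie under 10 CPM. Elmo1 averaged 0.401 ± 0.388 CPM in the controls and 3.05 ± 1.35 CPM at 1 Hz (2.78 ± 0.43, padj = 3.24e-05) and 2.53 ± 0.803 CPM at 4 Hz (2.48 ± 0.43, padj = 7.72e-05). Of 18 tested genes of the WAVE and Arp2/3 actin machinery, only Cyfip2, a WAVE complex subunit, was upregulated at 1 Hz (0.56 ± 0.13, padj = 0.0012), a share of 5.56% against the upward background of 9.34%. At 4 Hz edgeR called 0 of the 18, where 20.1% of all tested genes were called. By adjusted p alone 5 of the 18 passed, beside 5251 of all 13318 tested genes. The 4 tested catenins, which link cadherins to actin, gave 0 calls by edgeR in the 6 comparisons, where 1.86% to 20.1% of all tested genes were called. At most 2 of the 4 passed the adjusted p alone, for 4 Hz against 1 Hz and for 10 Hz against 1 Hz. In these comparisons 1634 and 4829 of the 13318 genes did so.

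Among the other cadherins Cdh13, which is anchored by a lipid tail and lacks a cytoplasmic domain, measured 90.3 ± 5.83 CPM in control, 166 ± 34.7 CPM at 1 Hz, 135 ± 30.0 CPM at 4 Hz, and 77.1 ± 5.80 CPM at 10 Hz. It was upregulated at 1 Hz (0.88 ± 0.13, padj = 1.67e-05) and 4 Hz (0.57 ± 0.13, padj = 0.000862), and lower at 10 Hz than at 1 Hz (-1.11 ± 0.13, padj = 8.32e-07, 6 of 6 libraries below). Cdh6, below 10 CPM and named after its values were seen, was upregulated at 1 Hz (2.69 ± 0.51, padj = 0.000287) and 4 Hz (2.57 ± 0.51, padj = 0.000314).

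In the immunoglobulin list Nectin1, which pairs with other nectins across the contact, was upregulated at 1 Hz (1.51 ± 0.18, padj = 2.25e-06) and 4 Hz (1.05 ± 0.18, padj = 6.59e-05), while Afdn, the afadin that ties nectins to actin, was downregulated at 4 Hz (-0.65 ± 0.09, padj = 5.19e-06). L1cam, a relative of the neural adhesion molecules, was also downregulated at 4 Hz (-0.86 ± 0.16, padj = 0.000143), with 6 of 6 libraries below all controls for both. Cdon, a receptor that associates with cadherins at myoblast contacts, was upregulated at 1 Hz (0.59 ± 0.13, padj = 0.00141) and was lower at 10 Hz than at 1 Hz (-0.77 ± 0.13, padj = 8.65e-05). Of the membrane proteins, Cav3, the muscle caveolin, was upregulated at 1 Hz (0.98 ± 0.17, padj = 0.000145), 4 Hz (1.29 ± 0.17, padj = 3.94e-06), and 10 Hz (0.69 ± 0.17, padj = 0.0194), the last of which was not called without 10 Hz replicate 4 or 6. Myof, a ferlin of the myoblast membrane, was downregulated at 4 Hz (-0.61 ± 0.15, padj = 0.00174).

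**Figure D5:**
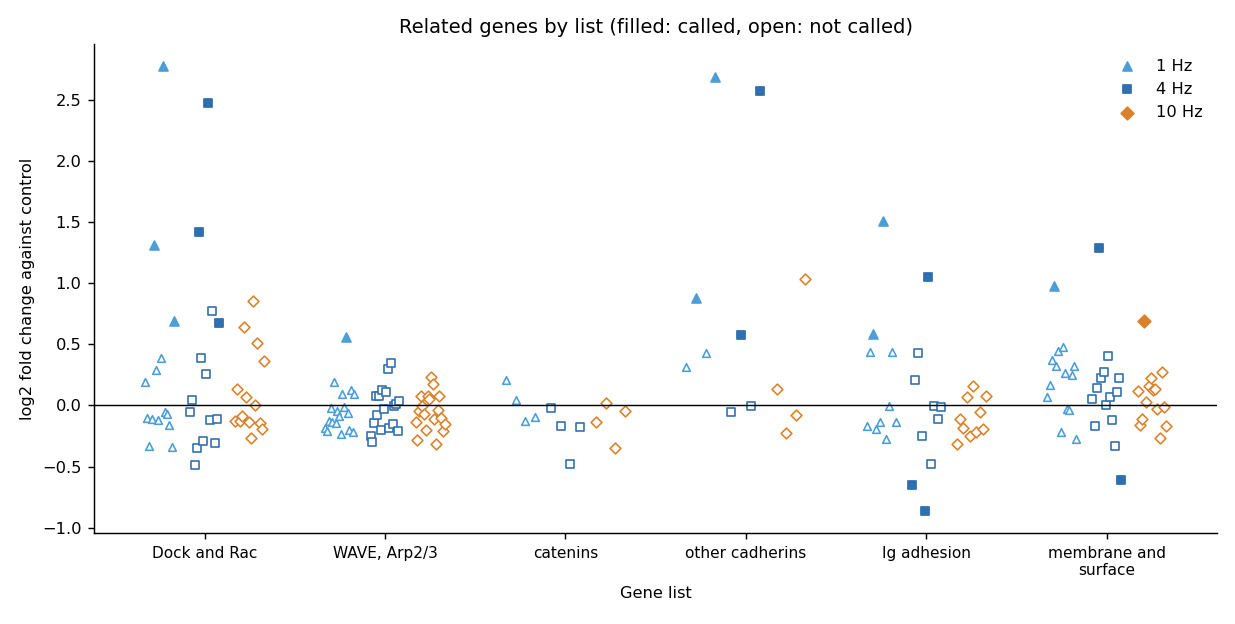
The log2(FC) against control (y axis) of the 64 tested related genes in 6 lists (x axis) at 1, 4, and 10 Hz, filled where called. The calls are 9 upward at 1 Hz, 7 upward and 3 downward at 4 Hz, and 1 upward at 10 Hz, and most WAVE, Arp2/3, and catenin genes lie near 0.

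Gene positions were read from GENCODE M39 on GRCm39. Mymk lies on chromosome 2 (26951627 to 26962228, minus strand, 5 exons in its canonical transcript) and Mymx on chromosome 17 (45911239 to 45913028, minus strand, 2 exons). Ncam1 (49413436 to 49710357, minus) and Jam3 (27005652 to 27066915, minus) are both on chromosome 9, Jam2 is on chromosome 16 (84570764 to 84623269, plus), and Cdh15 is on chromosome 8 (123574705 to 123596048, plus). The sources used here do not say if counting was strand-aware, so reads of overlapping genes on the opposite strand could be shared. Mymk overlaps Adamtsl2, which had a mean of 16.9 counts and log2(FC) values of 1.46, 1.96, and 1.33 at 1, 4, and 10 Hz. Jam3 overlaps Ncapd3, which had a mean of 65.3 counts and was not called at 10 Hz (log2(FC) = -0.16, padj = 0.571). Jam2 overlaps Atp5pf, which had a mean of 1102 counts and differed from control by 0.38 at 4 Hz (padj = 0.000843).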

How the data were processed

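RNA of 24 tissues (6 replicates in each of 4 conditions, groups and numbers from the titles) was made into directional libraries and sequenced in 50-base paired-end mode. The authors processed reads with nf-core/rnaseq (STAR, salmon) against GRCm39 and Ensembl genes; the release was not given. The submitters' processing notes also name BWA and bedtools without a role. The deposited tables held estimated counts from salmon, without normalization, and TPM, scaled by the authors per transcript length and library.

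Estimated counts were rounded. edgeR 4.0.16 (R 4.3.3, limma 3.58.1) kept genes by filterByExpr, scaled by TMM, and tested contrasts by quasi-likelihood in 1 fit of 24 libraries with condition as the only factor. P-values were adjusted by Benjamini-Hochberg over 13318 genes, with calls requiring padj below 0.05 and a log2 fold change beyond 0.5 in either direction. CPM are TMM-scaled, and the small RNA share is of raw totals. Totals of 4.09 to 15.2 M (mega) counts set the counting error. Alternatives were DESeq2 1.42.0 with or without apeglm 1.24.0, limma on log2(TPM + 1) and log2(TPM + 0.1), other scalings and filters, 12 libraries, a small RNA covariate, a replicate block, and leaving out each library. The models were tested on simulated data.

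The 10 genes, the 6 lists of related genes, the marker lists (fiber, undifferentiated, dividing, macrophage, endothelial, nerve, fat, fibroblast), and the small RNAs were chosen with earlier results of these data known. All 10 genes are named, and of related genes those called against control with a mean of at least 10 CPM, at most 2 rises and 2 falls per list and comparison; others are marked. For Mymk and Mymx the 3 genes with the highest r are given, predicted genes passed over. No 2 replicates were alike within counting noise (lowest chi-square per gene 3.32 over 60 pairs). Replicate numbers were not treated as pairs in the main fit. The channelrhodopsin transgene was not analysed here.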

Additional observations from a re-analysis of the deposited data

Results flagged for a closer look

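Each of the 10 genes was examined in each condition for a library far from the other 5, by the gap to its neighbor relative to the range. This was done in 40 groups of 6 libraries and 3 stood apart, where chance gives about 1 in 20. Cdh2 in control replicate 6 was at 132 CPM, while the other 5 controls were between 75.8 and 87.7 CPM. Dock5 in 1 Hz replicate 6 was at 27.3 CPM against 19.1 to 22.1 CPM in the other 5. Cdh11 in 4 Hz replicate 3 was at 0.786 CPM against 0 to 0.271 CPM, which is a matter of 6 counts in that library. The causes were not tested.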

How the results depend on the processing

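No called result changed direction under any alternative. Of 17 calls of single genes over the 6 comparisons, 17 were kept with DESeq2 size factors, without a filter, with DESeq2, and with the replicate block, 16 with the 12 libraries compared, 15 with a minimum of 5 CPM, 14 with total count scaling, 12 on each TPM scale, 3 with the small RNA covariate, and 10 of 11 with apeglm. Results not called changed sign in up to 7 of 37 cases (small RNA covariate). Depth limited Cdh11 (0 to 6 counts per library), Dock1, and Jam3 most, and ratios to Cdh11 are not given because it was at 0 in some libraries. Total count scaling moved the median log2(FC) of all genes at 4 Hz to -0.11, and the TPM scale to -0.16; the share of calls that were upward at 4 Hz was 52.2%, against 35.7% and 24.8% on these scales.

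With the small RNA covariate 0 of the 10 genes were called at 1 Hz, 0 at 4 Hz, 1 for 10 Hz against 1 Hz, and 0 for 10 Hz against 4 Hz. Over all genes 1, 250, 257, and 0 were called in the same order. On all 3 TPM scales 2 of the 10 genes were called at 4 Hz and 1 at 10 Hz. Over all genes log2(TPM + 1) called 2734 at 4 Hz and 234 at 10 Hz. On log2(TPM + 0.1) these were 3045 and 257, and on log2(TPM + 1) without a filter 2748 and 158. Related genes called with the covariate were 0 at 1 Hz, 1 at 4 Hz, 3 for 10 Hz against 1 Hz, and 0 for 10 Hz against 4 Hz. By adjusted p alone 20 of the 64 passed at 1 Hz, 25 at 4 Hz, 3 at 10 Hz, 8 for 4 Hz against 1 Hz, and 24 for 10 Hz against 1 Hz. Of all 13318 tested genes 4720, 5251, 651, 1634, and 4829 did so in the same order. On the log2(TPM + 1) scale the related genes called were 3 at 1 Hz (5 without a filter), 0 at 10 Hz (0 without a filter), 4 for 4 Hz against 1 Hz, and 6 for 10 Hz against 4 Hz (5 without a filter). Of all 13627 genes on this scale with the filter, 1985, 234, 460, and 1034 were called in the same order. On log2(TPM + 0.1) 3 related genes were called at 1 Hz and 4 for 4 Hz against 1 Hz, beside 2175 and 552 of all genes. With the 12 libraries compared, 0 related genes were called at 10 Hz, beside 146 of all genes. Apart from the covariate, which could not be separated from stimulation at 1 and 4 Hz, the cause was not tested.

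Leaving out 1 library at a time gave 4 to 5 of the 10 genes at 1 Hz, 4 to 5 at 4 Hz, 2 in every case at 10 Hz, 0 in every case for 4 Hz against 1 Hz, 3 to 4 for 10 Hz against 1 Hz, and 2 to 3 for 10 Hz against 4 Hz. For related genes it gave 9 to 11, 10 to 14, 0 to 1, 2 to 3, 8 to 11, and 7 to 10 in the same order. The single related call at 10 Hz (Cav3) was lost without 10 Hz replicate 4 or 6. Calls over all tested genes were not counted with 1 library left out, so these ranges have no background beside them. Same-numbered libraries did not deviate together in every pair (correlations of -0.133 to 0.194 for 1 Hz against control), and the replicate block kept 17 of 17 calls. With the block 5 of the 10 genes were called at 1 Hz, 4 at 4 Hz, and 2 at 10 Hz. Over all 13318 tested genes it called 2430, 2668, and 266 in the same order.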
